A study of Mus musculus with 8 samples.

Results

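Immediate early genes are switched on within minutes of a stimulus from factors already present in the cell, without new protein synthesis, and their mRNAs are short-lived. The best known encode the AP-1 proteins of the Fos and Jun families. Described here are 10 others, chosen by name: Egr1, Egr2, Nr4a1, Ier2, Ier3, Ier5, Klf2, Klf6, Btg2 and Zfp36. Of these, 9 were among the 16119 genes of the deposited count table, and all 9 passed the filter that left 15837 genes for testing. No row of the table carried the identifier of Egr2, which was not analysed here.

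RNA was sequenced from CDPs, the DC-restricted progenitors of bone marrow, which were sorted as cells negative for lineage markers, intermediate for c-Kit, low for Sca1 and positive for CD115 and Flt3. The 8 libraries came from mice given as C57BL/6 in the labels and C57BL/6J in the methods, in 2 groups of 4 replicates, each made from about 50000 cells. HFD mice had received a diet with 60 kcal% fat and CF mice a control diet with 10 kcal% fat. The labels call the HFD mice DIO and give 16 weeks as their time on diet, and call the CF mice DIO-Control, matched in age. The methods give 16 weeks as the age of the purchased males of both groups. The mice carried no transgene or deletion that the labels name, and whether a replicate was 1 mouse or a pool is not stated, so p-values measure the spread between these samples.

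Egr1, Nr4a1, Klf2 and Klf6 encode DNA-binding proteins. Egr1 is a zinc finger factor induced by growth factor and stress signals, Nr4a1 an orphan nuclear receptor induced by antigen receptor signals, Klf2 a factor of quiescent and migrating leukocytes and of endothelium, and Klf6 a factor of myeloid activation. Ier2, Ier3 and Ier5 are small proteins named for their early response, of which Ier3 acts in survival and ERK signalling and Ier5 in the heat shock factor pathway. Btg2 is an antiproliferative protein that binds the deadenylase complex. Zfp36 (tristetraprolin) binds AU-rich elements in the 3′UTR of inflammatory mRNAs and promotes their decay. ERK and p38 MAPK signals reach such genes largely through the serum response factor with its Elk partners, which bind the CArG box, and through Creb, which binds the cyclic AMP response element. In myeloid cells these genes respond to microbial products, to cytokines and to the handling of cells.

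Library totals ran from 28203651 to 48409689 counts, and the 9 genes had between 58 (Ier3) and 5078 (Zfp36) counts in a library. CPM is the count of a gene relative to the TMM-scaled total of its library. Transcripts of the sort markers were present in every library and none was called between diets (edgeR, adjusted p between 0.75 and 0.98): Kit ran from 34.2 to 53.6 CPM, Csf1r, which encodes CD115, from 79.4 to 133 CPM and Ly6a, which encodes Sca1, from 1.37 to 3.25 CPM. Flt3 was lowest in HFD replicate 1 with 88.8 CPM, against 227 to 378 CPM in the other libraries. HFD replicate 1 stood apart in markers of other cells. The summed level of 15 neutrophil genes was 20913 CPM there, 978 to 3646 CPM in the other HFD libraries and 1996 to 6695 CPM in CF, and all 15 genes were highest there. Results are therefore given with and without this library.

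The genes were compact. Of the 9, 6 had at most 2 exons in their longest transcript (66.7%), as had 13.1% of the 11775 tested protein-coding genes with an annotated structure. Ier2 and Ier5 had a single exon, and Nr4a1 had the most with 8. In GRCm38 Egr1 lies at chr18:34859823-34864984, Nr4a1 at chr15:101254269-101274795, Ier3 at chr17:35821684-35822923, Klf2 at chr8:72319033-72321656 and Klf6 at chr13:5861482-5870394, all on the plus strand. Ier2 lies at chr8:84661331-84662852, Ier5 at chr1:155096361-155099636, Btg2 at chr1:134075170-134079120 and Zfp36 at chr7:28376784-28380253, on the minus strand. Exons of Zfp36 overlap those of Gm44710 on the opposite strand. Whether the authors counted by strand is not given in the sources used here, so reads of the pair could not be told apart.

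Levels between genes were compared as CPM per kb of exon. Exons of all annotated transcripts of a gene were joined, so the order depends on the annotation. For Zfp36 they covered the whole gene span of 3470 nt. In CF, Zfp36 was highest with 35.5 ± 11.5 CPM per kb (SD, n = 4), followed by Btg2 with 30.5 ± 6.48 and Ier2 with 25.7 ± 4.76, and the ranges of neighbours in that order overlapped. A step separated Ier2 from Klf2 with 18.1 ± 1.77 CPM per kb, after which Ier3 with 13.4 ± 4.34, Klf6 with 13.03 ± 1.93 and Ier5 with 12.8 ± 1.90 overlapped in turn. Egr1 with 4.69 ± 1.64 and Nr4a1 with 1.09 ± 0.43 CPM per kb lay below, each with a range apart from its neighbours. Zfp36 thus stood at percentile 97.2 of the tested protein-coding genes, Ier5 at percentile 90.0, Egr1 at 67.1 and Nr4a1 at 24.4.

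AU-rich elements of the 3′UTR are shown because Zfp36 binds such sequences and because they mark short-lived mRNAs. The core UAUUUAU, written TATTTAT in DNA letters, was searched on the transcript strand. It was in the 3′UTR of 5 of the 9 genes (55.6%), against 30% of the 11667 tested protein-coding genes with an annotated 3′UTR. Of those with a 3′UTR within the length range of the 9 genes, 31.7% had it. Length was not matched, as the median 3′UTR was 1398 nt in that set and 774 nt in the 9 genes. Ier3 had 4 sites in 613 nt, Zfp36 3 in 774 nt, Klf6 2 in 3111 nt, Klf2 1 in 737 nt and Btg2 1 in 2199 nt. Egr1, Nr4a1, Ier2 and Ier5 had none. One site of each of 4 genes is printed from the GENCODE transcripts (GRCm38) with 7 bases on either side and the core in capitals, from chr17:35822493-35822513 (plus) for Ier3, chr7:28376955-28376975 (minus) for Zfp36, chr8:72320992-72321012 (plus) for Klf2 and chr1:134077253-134077273 (minus) for Btg2.
Ier3: atttatgTATTTATgtatatc
Zfp36: acgacttTATTTATtgtatta
Klf2: agactgcTATTTATtggacct
Btg2: gaagagcTATTTATacatgtt

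Promoter windows of 300 bases around the RefSeq start site (GRCm38.p6) were matched for 7 of the 9 genes, all but Egr1 and Ier2, and for 9297 tested protein-coding genes. They are shown because the genes moved together across libraries. A CArG box was in 1 of the 7 windows (Zfp36) and in 1.27% of all windows. The full cyclic AMP response element TGACGTCA, searched on both strands, was in 1 (Btg2) and in 3.32%. Its core TGACG, which the full element contains on both strands, was in 3 (Nr4a1, Klf2 and Btg2) and in 32.4%. An EGR site, GCGTGGGCG or GCGGGGGCG on either strand, was in 3 (Nr4a1, Klf2 and Zfp36) and in 6.48%, and GGGCGG, which can overlap it, was in all 7 and in 64%. TATAAA on the coding strand was in none and in 4.18%. Printed are Nr4a1 from chr15:101266596-101266895 (plus), Btg2 from chr1:134079106-134079405 (minus) and Zfp36 from chr7:28379179-28379478 (minus). Capitals mark the TGACG cores in Nr4a1, read on the opposite strand, of which the first lies at -233 to -229 and the last at -40 to -36 from the start site. They mark TGACGTCA at -166 to -159 in Btg2 and the CArG box at -58 to -49 in Zfp36. The RefSeq starts of Nr4a1 and Zfp36 lie inside the GENCODE gene spans.
Nr4a1: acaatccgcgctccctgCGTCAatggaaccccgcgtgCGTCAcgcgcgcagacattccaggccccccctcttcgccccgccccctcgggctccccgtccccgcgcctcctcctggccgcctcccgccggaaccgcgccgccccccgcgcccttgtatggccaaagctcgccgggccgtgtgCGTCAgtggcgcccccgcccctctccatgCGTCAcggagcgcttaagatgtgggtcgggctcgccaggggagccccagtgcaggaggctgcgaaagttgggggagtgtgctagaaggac
Btg2: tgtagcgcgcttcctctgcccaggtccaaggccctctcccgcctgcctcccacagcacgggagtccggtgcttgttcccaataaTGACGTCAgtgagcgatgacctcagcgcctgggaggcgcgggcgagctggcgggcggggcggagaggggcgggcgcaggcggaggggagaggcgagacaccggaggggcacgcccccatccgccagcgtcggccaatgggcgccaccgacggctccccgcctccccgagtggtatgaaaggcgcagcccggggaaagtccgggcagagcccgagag
Zfp36: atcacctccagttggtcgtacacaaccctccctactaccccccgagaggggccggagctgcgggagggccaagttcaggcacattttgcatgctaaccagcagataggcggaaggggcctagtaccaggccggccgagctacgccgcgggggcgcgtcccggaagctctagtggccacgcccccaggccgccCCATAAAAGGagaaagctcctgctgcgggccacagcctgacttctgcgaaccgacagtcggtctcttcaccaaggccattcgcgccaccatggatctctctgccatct

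The design asked whether HFD changed these genes in CDPs. Across all 8 libraries the log2 fold change of HFD against CF was below 0 for each of the 9 genes, as it was for 40.3% of all genes tested, with a median of -0.68 against 0.055 over all genes. No member was called at an adjusted p of 0.05 (edgeR), where 0.423% of all genes were called lower and 0% higher. Only Egr1 had an unadjusted p below 0.05, as had 5.34% of all genes with a lower level and 3.22% with a higher level. Scaled by library size alone, Egr1 was no longer under that limit (edgeR), and over all genes the shares were 3.86% lower and 9.92% higher. DESeq2 also called 0 of 9, with 3 at an unadjusted p below 0.05, against 5.86% of all genes lower and 3.52% higher. With limma voom 0 were called and 5 were under that limit, against 5.74% lower and 3.2% higher. No member had every HFD library below every CF library, which 3.58% of all genes had, and none had every HFD library above every CF library, which 2.58% had.

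The groups overlapped through 1 library. HFD replicate 1 was the highest HFD library for all 9 genes, as for 34% of all genes, and the highest of all 8 libraries for 7, all but Egr1 and Ier3. Its level was 2.37 (Klf6) to 7.54 (Ier3) times the mean of the other HFD libraries, with a median of 3.10, while the median over all genes was 0.98. HFD replicates 2 to 4 lay below every CF library for 8 of the 9 genes, all but Klf6, against 6.64% of all genes. The plot of CPM by library shows this split.

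**Figure D1:**
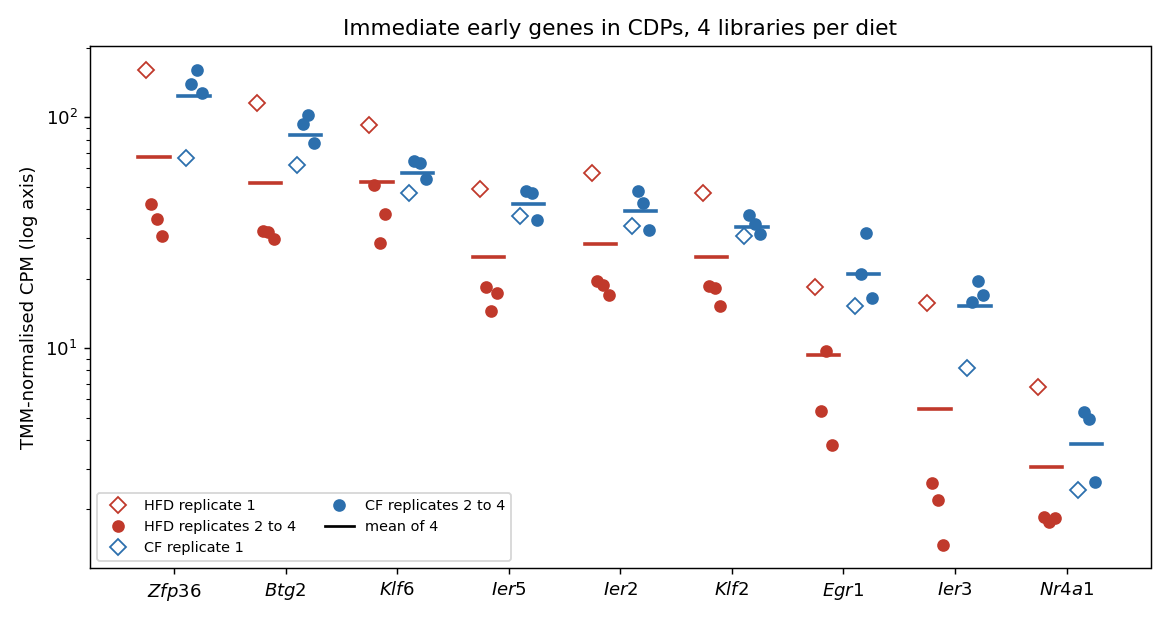
TMM-normalised CPM (log axis) of 9 immediate early genes in 4 HFD (red) and 4 CF (blue) libraries, ordered by mean CF level, with replicate 1 of each diet as an open diamond and lines at the group means. HFD replicate 1 is the highest HFD library for each gene, and HFD replicates 2 to 4 lie below all CF libraries for 8 of the 9.

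Among the transcription factors, Egr1 had the largest fold change. It had 18.5, 5.35, 9.73 and 3.81 CPM in HFD replicates 1 to 4 and 15.2, 20.9, 31.5 and 16.5 CPM in CF replicates 1 to 4. HFD replicate 1 lay within the CF range and the other 3 HFD libraries below it. The means were 9.34 ± 6.58 CPM in HFD and 21.0 ± 7.37 CPM in CF (SD, n = 4). The log2 fold change was -1.17 ± 0.48 (SE; edgeR, adjusted p = 0.52).

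Nr4a1, whose promoter with 4 TGACG cores is printed above, had 6.77, 1.86, 1.76 and 1.84 CPM in HFD and 2.43, 5.31, 4.94 and 2.63 CPM in CF. These rest on 59 to 211 counts per library. HFD replicate 1 was the highest of all, the other 3 HFD libraries were nearly equal and lowest, and CF fell into a lower and a higher pair. The log2 fold change was -0.33 ± 0.51 (SE; edgeR, adjusted p = 0.93).

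Klf2 had 46.9, 18.5, 18.1 and 15.2 CPM in HFD and 30.6, 37.6, 34.5 and 31.1 CPM in CF. Its CF libraries were close together, and the HFD libraries lay on both sides of them, 1 above and 3 below. The log2 fold change was -0.44 ± 0.34 (SE; edgeR, adjusted p = 0.83). Klf6 had 92.8, 51.0, 28.4 and 37.9 CPM in HFD and 46.7, 64.7, 63.5 and 54.0 CPM in CF. It was the one gene for which another HFD library, replicate 2, exceeded a CF library. Its log2 fold change of -0.12 ± 0.33 (SE; edgeR, adjusted p = 0.97) was the smallest in size of the 9, and turned to 0.047 when counts were scaled by library size alone, which moved the median of all genes to 0.25.

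Of the early response genes, Ier3 had the lowest levels in CPM. It had 15.6, 2.61, 2.20 and 1.41 CPM in HFD and 8.19, 15.8, 19.6 and 17.0 CPM in CF. HFD replicate 1 lay among the CF libraries, CF replicate 1 was the lowest of CF, and the other 3 HFD libraries were below all of these. The means of 5.46 ± 6.80 and 15.2 ± 4.91 CPM gave a log2 fold change of -1.48 ± 0.74 (SE; edgeR, adjusted p = 0.68).

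Ier2 had 57.3, 19.5, 18.8 and 17.1 CPM in HFD and 33.8, 47.7, 42.6 and 32.6 CPM in CF. Ier5 had 48.7, 18.3, 14.5 and 17.3 CPM in HFD and 37.3, 48.03, 46.8 and 36.0 CPM in CF. For both, HFD replicate 1 was above all CF libraries and the other HFD libraries were below them, though for Ier5 the top HFD and CF libraries nearly met. The log2 fold changes were -0.48 ± 0.39 and -0.77 ± 0.37 (SE; edgeR, adjusted p = 0.84 and 0.66).

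The 2 regulators of mRNA decay had the highest levels of the 9 per kb in CF. Btg2 had 115, 32.2, 31.9 and 29.6 CPM in HFD and 62.1, 93.8, 102 and 77.1 CPM in CF. Zfp36 had 161, 42.2, 36.2 and 30.6 CPM in HFD and 66.9, 139, 159.9 and 127 CPM in CF. In both genes HFD replicates 2 to 4 were the 3 lowest libraries, HFD replicate 1 the highest and CF replicate 1 the lowest of CF. The log2 fold changes were -0.68 ± 0.46 for Btg2 and -0.87 ± 0.55 for Zfp36 (SE; edgeR, adjusted p = 0.80 and 0.78).

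Without HFD replicate 1, 6 of the 9 genes were called lower in HFD (edgeR), against 1.05% of all genes called lower and 0.214% called higher in that fit. All 9 had an unadjusted p below 0.05, as had 9.76% of all genes with a lower level, and the median log2 fold change was -1.33 against 0.029 over all genes. This fit sets 3 HFD libraries against 4 CF libraries, and the library left out was the one in which the genes were highest. The largest change was that of Ier3, with 2.07 ± 0.61 CPM (SD, n = 3) in HFD, which was 7.33-fold lower than in CF (log2 fold change -2.87 ± 0.34, SE; edgeR, adjusted p = 0.017). Zfp36 was 3.39-fold lower with 36.3 ± 5.82 CPM (adjusted p = 0.032), Btg2 2.68-fold with 31.2 ± 1.42 CPM (adjusted p = 0.016) and Ier5 2.52-fold with 16.7 ± 1.95 CPM (adjusted p = 0.015; edgeR). Ier2 was 2.12-fold lower (adjusted p = 0.022) and Klf2 1.93-fold (adjusted p = 0.018; edgeR). The libraries left also differed in neutrophil RNA. The mean log2 CPM of the 15 neutrophil genes was 4.61 to 6.36 in these HFD libraries and 5.78 to 7.38 in CF. The same fit with that level as a covariate is given below.

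Egr1, Nr4a1 and Klf6 were not called without HFD replicate 1. Egr1 had a log2 fold change of -1.74 ± 0.37 (SE; edgeR, adjusted p = 0.073), larger than that of 4 of the called genes but with a wider spread in HFD, 6.30 ± 3.07 CPM (SD, n = 3). Nr4a1 had -1.07 ± 0.32 (adjusted p = 0.16) and Klf6 -0.55 ± 0.20 (adjusted p = 0.25; edgeR).

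**Figure D2:**
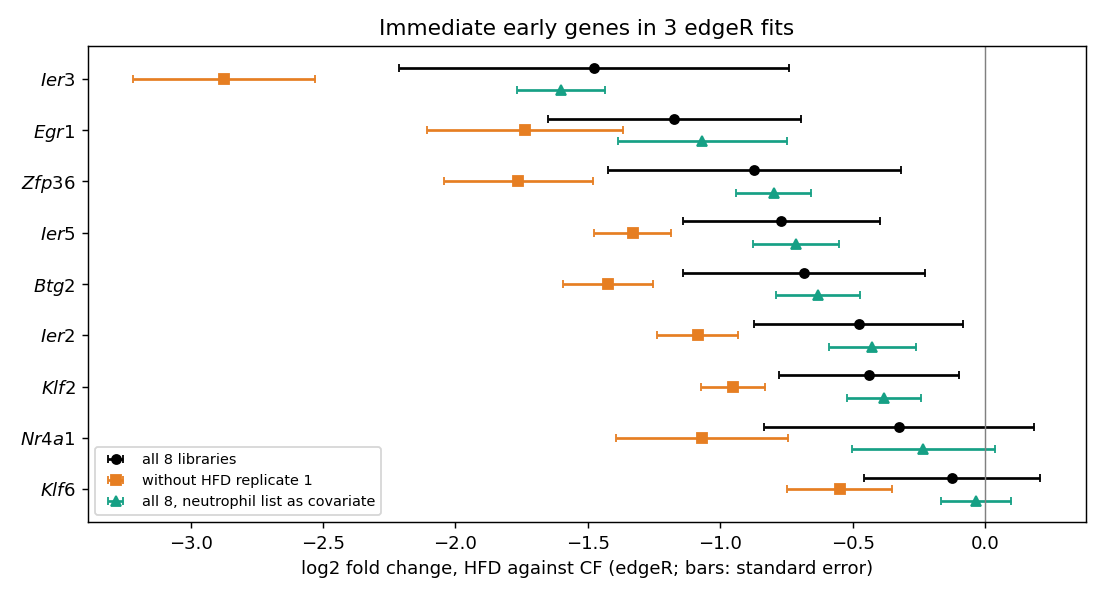
Log2 fold change of HFD against CF for 9 immediate early genes, with its standard error, in 3 edgeR fits: all 8 libraries (circles), without HFD replicate 1 (squares) and all 8 with neutrophil RNA as a covariate (triangles). Ier3 runs from -1.48 with all libraries to -2.87 without HFD replicate 1, and the bars of the covariate fit are shorter than those of the fit with all 8 libraries.

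The 9 genes varied together. Over the 8 libraries the Pearson correlation of their log2 CPM had a median of 0.92 over 36 pairs, from 0.59 (Egr1 and Klf6) to 0.99 (Ier2 and Klf2), and the median was 0.93 without HFD replicate 1 and 0.92 after each diet was centred on its mean. Btg2 was closest to the rest, with a median r of 0.97, and Klf6 farthest with 0.84. These points share libraries and scaling, and the values are descriptive. The other genes with levels most like the mean of the 9 were Sat1, Junb, Id1 and Ftl1, with r between 0.990 and 0.995 over the 8 libraries. Sat1 encodes a polyamine acetyltransferase, Junb an AP-1 protein, Id1 an inhibitor of basic helix-loop-helix factors and Ftl1 the ferritin light chain. All 4 were highest in HFD replicate 1.

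The 9 genes varied with the level of neutrophil RNA. The mean log2 CPM of the 15 neutrophil genes, none of them at 0 in every library and none called between diets, was 9.11, 6.36, 5.08 and 4.61 in HFD replicates 1 to 4 and 5.78, 7.32, 7.38 and 7.28 in CF replicates 1 to 4. Over the 8 libraries its Pearson correlation with log2 CPM was highest for Klf6 (r = 0.94, exact permutation p = 0.00099, adjusted p = 0.0087 over 9 relations; Spearman rho = 0.95, exact p = 0.0011, adjusted p = 0.0026). By Pearson it was lowest for Egr1 (r = 0.69, exact permutation p = 0.054, adjusted p = 0.054; rho = 0.86, exact p = 0.011, adjusted p = 0.012). For Zfp36 r was 0.89 (exact permutation p = 0.0020, adjusted p = 0.0087) and rho 0.98 (exact p = 0.00040, adjusted p = 0.0018). The other 6 genes had r between 0.80 and 0.88 with adjusted p of at most 0.025, and rho between 0.81 (Ier3) and 0.98 (Btg2) with adjusted p of at most 0.022 (exact permutation tests, two-sided). Without the 2 libraries farthest from the median neutrophil level, HFD replicates 1 and 4, r was 0.60 to 0.92 over 6 libraries. After each diet was centred on its mean, r was 0.77 (Egr1) to 0.98 (Ier3), given as a description without a test. The relation was not computed over all genes, so whether it is particular to these 9 was not tested. The 9 tests share libraries and genes that vary together, and their permutations exchange libraries between diets.

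**Figure D3:**
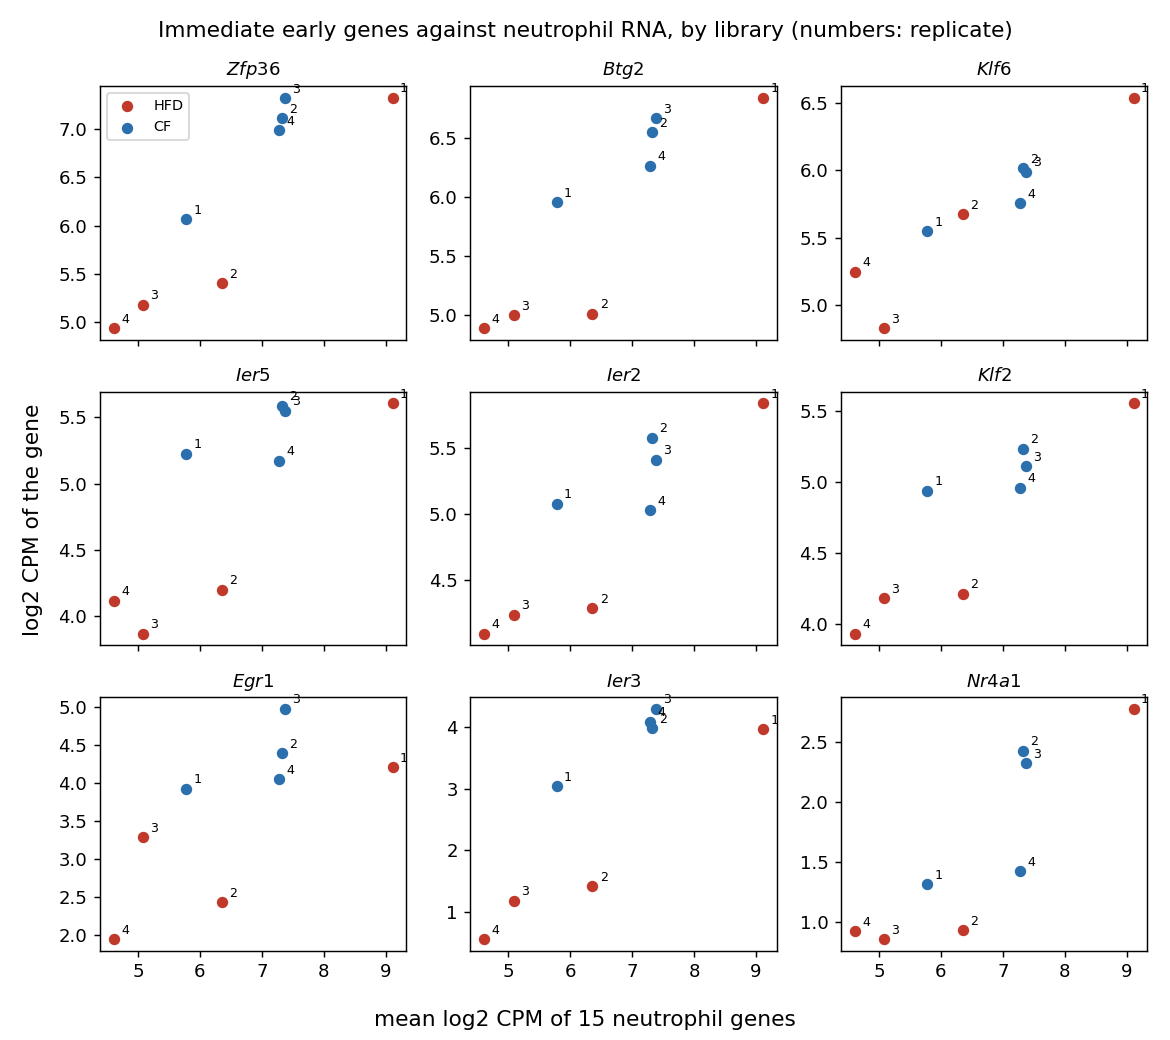
Log2 CPM of each of 9 immediate early genes against the mean log2 CPM of 15 neutrophil genes, 1 panel a gene, with HFD libraries in red, CF libraries in blue and the replicate number beside each point. HFD replicate 1 is farthest right at 9.11, and CF replicate 1 at 5.78 lies left of HFD replicate 2 at 6.36 and above it for 8 of the 9 genes.

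CF replicate 1 had less neutrophil RNA than HFD replicate 2 (1996 against 3646 summed CPM) and more of 8 of the 9 genes, from 1.31 times for Nr4a1 to 3.14 times for Ier3, with 0.92 for Klf6. The median ratio of the 9 was 1.73, and that of all genes 0.98. This pair of single libraries was picked after its values were seen and has no replicate check. With the neutrophil mean as a covariate, edgeR called 3 of the 9 genes lower in HFD, against 3.57% of all genes called lower and 0.695% higher, and 7 had an unadjusted p below 0.05, against 7.82% of all genes with a lower level. They were Ier3 (log2 fold change -1.60 ± 0.17, SE; adjusted p = 0.00048), Zfp36 (-0.80 ± 0.14, adjusted p = 0.010) and Ier5 (-0.71 ± 0.16, adjusted p = 0.037). Btg2 had -0.63 ± 0.16 (adjusted p = 0.059), Egr1 -1.07 ± 0.32 (adjusted p = 0.13) and Klf6 -0.034 ± 0.13 (adjusted p = 0.95; edgeR). With the covariate and without HFD replicate 1, a setting chosen after seeing the data, the calls were Ier3 (-1.89), Ier5 (-1.13) and Btg2 (-1.05). Over all genes, 2.31% were called lower and 0.101% higher. Zfp36 (-0.92, adjusted p = 0.13), Ier2 (-0.85, adjusted p = 0.096) and Klf2 (-0.76, adjusted p = 0.052; edgeR) lost the calls they had without the covariate. The median of the 9 was -0.92, against -1.33 in the same libraries without the covariate.

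Other markers also moved with HFD replicate 1. All 7 erythroid genes (338 CPM summed, against 52.6 to 81.8 CPM in the other libraries), all 5 megakaryocyte genes (74.9 against 2.30 to 18.7 CPM) and all 4 granulocyte progenitor genes (1120 against 212 to 699 CPM) were highest there, and 5 of 8 B cell genes (1303 against 317 to 654 CPM). The 7 conventional DC genes summed to 188 CPM in HFD replicate 1, 365 to 419 CPM in the other HFD libraries and 438 to 823 CPM in CF, so that every HFD library was below every CF library. The 5 plasmacytoid DC genes summed to 151 CPM in HFD replicate 1, 222 to 296 CPM in the other HFD libraries and 152 to 195 CPM in CF. In the fit without HFD replicate 1, both sums thus separated the diets along with 8 of the 9 genes. Monocyte and macrophage genes overlapped between HFD (172 to 479 CPM) and CF (371 to 538 CPM). T and NK cell genes were at most 30.4 CPM summed, mast cell and basophil genes 63.0 CPM and endothelial and stromal genes 11.4 CPM, each highest in HFD replicate 1. No gene of these lists was called or at 0 in every library. The part of other cells in the levels of the 9 genes was not tested beyond the neutrophil covariate, and in bulk RNA fewer cells of a type and less RNA per cell cannot be told apart.

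The other genes of the pathway were taken from lists by role, 101 tested genes in all. Of these 2 were called, both lower in HFD, against 0.423% of all genes called lower. By sign 58 were lower, against 40.3% of all genes, with a median log2 fold change of -0.08. Among the regulators above the 9 genes, namely MAPK kinases and the Srf, Elk and Creb factors, 0 of 25 were called and 0 had an unadjusted p below 0.05 in either direction (edgeR), with a median of 0.011 with all libraries and 0.021 without HFD replicate 1. The lowest p values were those of Rps6ka3 (0.45 ± 0.23, SE; adjusted p = 0.69) and Rps6ka1 (0.25 ± 0.14, adjusted p = 0.73; edgeR), kinases downstream of ERK.

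All 7 AP-1 genes tested were lower by sign and 0 were called (edgeR; 3 at an unadjusted p below 0.05), with a median of -0.94. Jun had 29.6 to 58.8 CPM in HFD and 77.4 to 96.8 CPM in CF, so its groups did not overlap (log2 fold change -0.92 ± 0.22, SE; edgeR, adjusted p = 0.14). Fosb had 9.88 to 44.0 CPM in HFD and 51.1 to 109 CPM in CF, also apart (-1.65 ± 0.46, adjusted p = 0.20; edgeR). Without HFD replicate 1, 5 of the 7 were called lower, Fos, Fosb, Jun, Junb and Jund, against 1.05% of all genes. The median of the 7 was then -1.97. Over all genes, 3.58% had every HFD library below every CF library, and none of the 9 genes described here did.

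Of 24 further immediate early genes, 0 were called (edgeR; unadjusted p below 0.05 for 5 lower and 2 higher), 15 were lower by sign and the median was -0.16. Arc, a neuronal early gene, had 0.45 to 1.31 CPM in HFD and 2.42 to 5.22 CPM in CF (log2 fold change -2.06 ± 0.38, SE; edgeR, adjusted p = 0.071). Errfi1, an inhibitor of the EGF receptor, had 0.89 ± 0.33 CPM in HFD and 2.90 ± 1.75 CPM in CF (SD, n = 4; adjusted p = 0.21, edgeR). Without HFD replicate 1, Gadd45b, Rhob, Arc and Ptgs2 were called lower, and the median was -0.57.

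Feedback inhibitors, a list not confined to those of MAPK signals, gave 0 calls of 13 (edgeR; unadjusted p below 0.05 for 1 lower and 1 higher). Their median was 0.060. Dusp6, an ERK phosphatase, had 17.5 to 30.4 CPM in HFD and 13.7 to 15.9 CPM in CF, higher in every HFD library (0.65 ± 0.17, SE; adjusted p = 0.17, edgeR), and was called higher with the neutrophil covariate (adjusted p = 0.032, edgeR). Dusp2 had the opposite sign (-0.67 ± 0.27, SE; adjusted p = 0.50, edgeR) and was called lower with the covariate (adjusted p = 0.038, edgeR). Dusp1, an early gene itself, had a log2 fold change of -0.85, and of -2.17 without HFD replicate 1, where it was called.

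Of 11 family relatives of the 9, 0 were called (edgeR; unadjusted p below 0.05 for 1 lower and 1 higher) and the median was -0.11, and -0.16 without HFD replicate 1. The relatives of Zfp36, Zfp36l1 and Zfp36l2, had log2 fold changes of -0.15 and 0.075 without HFD replicate 1, where Zfp36 had -1.76. Tob1, a relative of Btg2, was called lower in that fit with -1.24. Ier5l had 0.87 to 1.53 CPM in HFD and 2.80 to 4.94 CPM in CF (-1.52 ± 0.30, SE; edgeR, adjusted p = 0.080, and 0.0021 with the covariate). Btg3, a relative of Btg2, was at 3.56 ± 0.59 CPM in HFD and 2.55 ± 0.30 CPM in CF (SD, n = 4; edgeR, adjusted p = 0.50).

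Of 8 tested mRNAs known as AU-rich targets of Zfp36, 0 were called (edgeR; unadjusted p below 0.05 for 2 lower and 1 higher), 6 were lower by sign and the median was -1.06. Ccl3 had 2.25 ± 1.14 CPM in HFD and 4.56 ± 0.78 CPM in CF and Ccl4 0.75 ± 0.31 and 1.60 ± 0.45 CPM (SD, n = 4; edgeR, adjusted p = 0.43 and 0.37), both chemokines. Without HFD replicate 1, Tnf and Ptgs2 were called lower. Ier3, itself a gene with 4 of the printed type of site, was left out of this list. Of 4 targets of Klf2, 0 were called and 0 had an unadjusted p below 0.05 (edgeR), with S1pr1, a receptor in lymphocyte egress, at 1.14 ± 0.50 (SE; adjusted p = 0.59) and Thbd, thrombomodulin, at 0.087 ± 0.12 (adjusted p = 0.92).

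The 2 called genes of the pathway were the inducible Hsp70 genes among 11 heat shock genes, a list that responds, like the 9 genes, to stress of the cell. Hspa1a had 17.0 to 55.6 CPM in HFD and 199 to 298 CPM in CF (log2 fold change -3.04 ± 0.38, SE; edgeR, adjusted p = 0.035). Hspa1b had 19.6 to 69.3 CPM in HFD and 236 to 368 CPM in CF (-2.97 ± 0.40, adjusted p = 0.035; edgeR). The groups of both were apart with HFD replicate 1 included, unlike those of the 9 genes. Both calls were lost when HFD replicate 2, 3 or 4 or CF replicate 1, 2 or 3 was left out, which left 0 called genes in the pathway lists (edgeR). By the methods, uniquely mapped pairs were counted, so reads that fit both of these near-identical copies could be lost. The levels of both are therefore uncertain. The median of the 11 was 0.00073.

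**Figure D4:**
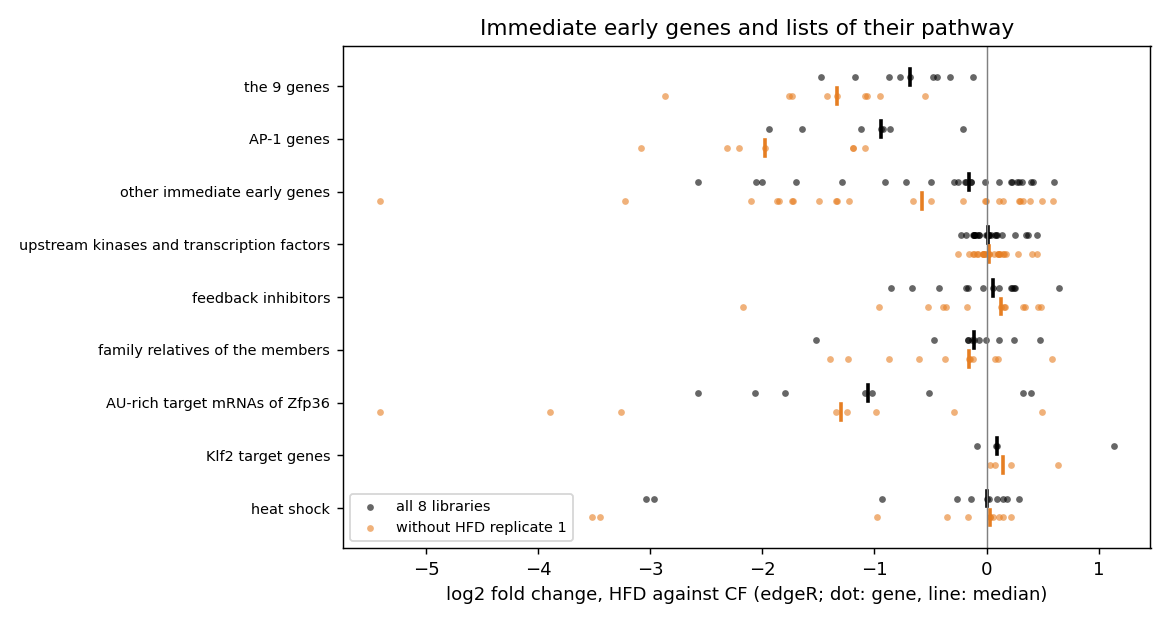
Log2 fold change of HFD against CF (edgeR) of the 9 immediate early genes and of the genes of each pathway list, 1 dot a gene and a line at the median, with all 8 libraries (black) and without HFD replicate 1 (orange). The 9 genes and the AP-1 genes lie left of 0 with medians of -0.68 and -0.94, and the upstream regulators centre on 0.011.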

How the data were processed

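RNA-seq of sorted CDPs in 8 libraries was analysed from the raw counts per gene that the authors deposited. According to the submitters' processing notes and the methods, reads were checked with FastQC, trimmed with cutadapt, aligned to GRCm38 with HISAT2 and counted with StringTie on GENCODE genes from uniquely mapped pairs. Tool versions, annotation release and strandedness are not given in the sources used here. The lowest highest count of any gene was 29, and libraries were amplified with depletion of rRNA. Whether PCR copies were removed is not given in the sources used here. Names and coordinates came from GENCODE vM21 through Ensembl identifiers (16067 matched and 52 not).

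Genes passing filterByExpr were TMM-normalised, and HFD was set against CF with the quasi-likelihood test of edgeR 4.0.16 (robust, R 4.3.3), with diet as the single term and Benjamini-Hochberg adjustment over all 15837 genes at 0.05. Standard errors are the log2 fold change over the root of F, and log2 CPM used a prior count of 2. The tests were tried on simulated data. Alternatives were other scalings and filters, DESeq2 1.42.0, limma 3.58.1 voom, protein-coding genes alone, the replicate number as a block, the mean log2 CPM of 15 neutrophil genes as a covariate and each library left out. Exact permutation tests used SciPy 1.17.1, and figures matplotlib 3.10.9.

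The members and the gene lists, written from general knowledge, were chosen with earlier results of these data known. Named genes were the members, the 2 genes of each list with the lowest p and every called one, the 5 genes most like the mean of the members' z-scores, and the sort markers. One gene named by these rules is left out of the text. Fos, Junb, Jund, Gadd45b, Rhob, Ptgs2, Tnf, Dusp1, Tob1, Zfp36l1 and Zfp36l2 were named after their values were seen.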

Additional observations from a re-analysis of the deposited data

Results flagged for a closer look

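Among 20 groups of 4 libraries (9 genes and the neutrophil mean in each diet), 4 held a library whose distance from the rest passed Dixon's critical value. Chance gives about 1 in 20 for separate groups. These groups share libraries and the genes vary together, so flags of the same library are not separate events. HFD replicate 1 was far above the other HFD libraries for Nr4a1 (2.77 log2 CPM, others 0.86 to 0.94), Ier2 (5.84, others 4.10 to 4.29) and Btg2 (6.84, others 4.89 to 5.01). CF replicate 1 was far below the other CF libraries in the mean of the 15 neutrophil genes (5.78 log2 CPM, others 7.28 to 7.38).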

How the results depend on the processing

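The median log2 fold change of the 9 genes kept its sign in all 19 settings tried, and it was -1.33 to -0.51 when each library was left out in turn. The number of the 9 called was 0 in the fit with all libraries, 3 with voom and sample quality weights (Ier3, Ier5 and Btg2), 3 with the neutrophil covariate, 3 with the covariate and without HFD replicate 1 (chosen after seeing the data), and 0 to 6 when each library was left out, where only leaving out HFD replicate 1 gave calls. Klf6 changed sign with library size alone (0.047) and without HFD replicate 3, with a range of -0.55 to 0.081 over the libraries left out. The cause was not tested.

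Over all genes 67 were called, against 108 with library size alone, 569 with DESeq2, 273 with voom and quality weights, 0 with protein-coding genes alone, 675 with the covariate, 383 with the covariate and without HFD replicate 1, and 0 to 200 when each library was left out. Of the 101 pathway genes 2 were called, against 10 with DESeq2, 11 with voom and quality weights, 0 with protein-coding genes alone, 15 with the covariate, 10 with the covariate and without HFD replicate 1, and 0 to 14 when each library was left out. The calls of Hspa1a and Hspa1b were thus lost in some settings.

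Samples of 1 number did not deviate together (r between -0.44 and -0.078), so the numbers were not taken as pairs. With the replicate number as a block, 0 genes were called over all genes, 0 of the pathway genes and 0 of the 9, of which 3 had an unadjusted p below 0.05 (edgeR), as had 675 lower and 236 higher of all 15837 genes. Depth was thinnest for Nr4a1, with 59 to 211 counts a library, and for Ier3 in HFD replicates 2 to 4, with 58 to 84 counts.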
